A study of Oryza sativa with 12 samples.

Results

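The comparison described here is the response of spikelets of the rice (Oryza sativa) cultivar IRGA 428, which the labels call sensitive to heat, to daytime heat at anthesis. All libraries of this cultivar were taken, which gave 6 of the 12 libraries of the series: 3 from plants at 38 °C (heat 1 to heat 3) and 3 from plants at 29 °C (control 1 to control 3). The temperatures were held for 7 h of the day on 3 days, spikelets from the middle of the panicle were frozen at the end, and each library pooled 2 plants. All 6 libraries share the genotype and the growth in a climate-controlled greenhouse before transfer to growth chambers. The other 6 libraries are from the cultivar BR-IRGA 409, which the labels call tolerant, again 3 at 38 °C and 3 at 29 °C, and they are used only where stated. Nothing in the labels says that libraries of one temperature came from separate chambers or days, so p-values measure the spread between these libraries.

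Anthesis, when the floret opens and sheds pollen, is the stage at which rice is most easily harmed by heat, through poor anther opening and poor pollen germination. In plants, heat is known to activate heat shock transcription factors, which switch on genes for chaperones that keep proteins folded, while genes of growth and photosynthesis are often turned down. A spikelet holds the husks (lemma and palea), anthers and pistil, so its RNA is a mixture from several tissues. In such bulk samples fewer cells of a type and less RNA per cell cannot be told apart. Genes are listed under IDs with the prefix MH, with no names beside them. Of the 57174 IDs, 0 matched the available RefSeq table of rice genes; genes for chaperones or markers of anther and pistil could not be looked up, the tissue was not checked against markers, and genes are given by ID with no role.

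Sequencing depth, as reads assigned to genes, was 16.5, 20.7 and 27.0 M (M, 1000000 counts) in heat 1, 2 and 3, against 8.88, 16.4 and 15.8 M in control 1, 2 and 3. All heat libraries were thus deeper than all control libraries, though heat 1, control 2 and control 3 lay within a narrow range. Genes with at least 1 count numbered 27113, 27618 and 28234 in heat 1, 2 and 3, against 25405, 27043 and 26957 in control 1, 2 and 3. With every library thinned at random to the depth of control 1 the numbers were 25800, 25899 and 25901 in the heat libraries and 25405, 25800 and 25766 in the control libraries, a narrower gap than at full depth. The heat mean was 25867 ± 57.7 genes and the control mean 25657 ± 219 (SD, n = 3 each; exact two-sided permutation p = 0.2).

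The 6 libraries did not fall into 2 groups by temperature. The variation between a pair of libraries was measured as the biological coefficient of variation, the relative spread of a gene between 2 libraries beyond counting error. Of the 15 pairs, the closest was heat 1 with control 3, at 0.0791. The next was heat 2 with heat 3, at 0.110, and the third was heat 2 with control 2, at 0.211. Heat 1 stood farther from the libraries of its own temperature, at 0.255 from heat 2 and 0.258 from heat 3. The 3 pairs of control libraries were wider apart still, at 0.328 for control 1 and 2, 0.360 for control 1 and 3 and 0.314 for control 2 and 3. Control 3 was therefore nearer to every heat library (0.0791, 0.273 and 0.274 for heat 1, 2 and 3) than to either of the other control libraries. Control 2 was likewise nearer to every heat library (0.297, 0.211 and 0.254) than to either of the other controls.

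**Figure D1:**
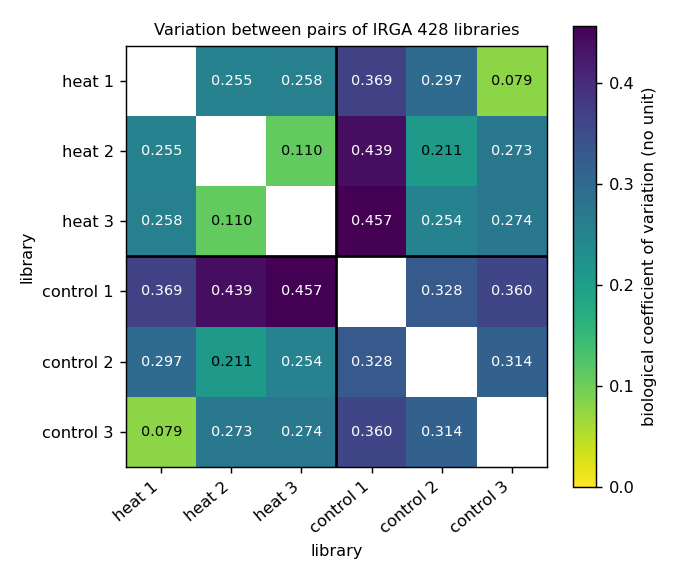
Biological coefficient of variation (no unit) for each pair of the 6 IRGA 428 libraries, heat libraries above and left of control libraries, with black lines between the temperatures. The lowest value is 0.079 for heat 1 and control 3, in the block that joins the temperatures, and the highest is 0.457 for heat 3 and control 1.

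Heat 1 and control 3 differed by more than counting error. Over 21320 genes with at least 10 counts in the pair, the chi-square value per gene was 6.02, where counting error alone gives a value near 1. Whether they share a source of RNA was not tested. For heat 2 and heat 3 it was 10.9, and over the other 13 pairs it ran from 30.8 to 82.8. Between heat 1 and control 3, 291 of 21396 genes (1.36%) differed by at least 2-fold on the log2 CPM scale (counts per 1000000 on scaled library sizes, with a prior count of 2). The share was 8.30% and 8.42% between heat 1 and heat 2 or 3, and 11.9% to 17.6% among the control libraries. The same closeness showed among the 100 genes with the most counts in each library, of which heat 1 and control 3 shared 89, heat 2 and heat 3 shared 93, and the pairs of control libraries shared 68 to 81.

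In BR-IRGA 409 the libraries did separate by temperature. Its pairs of 38 °C libraries ranged from 0.133 to 0.238 and its pairs of 29 °C libraries from 0.119 to 0.192, and its 9 pairs of one 38 °C and one 29 °C library from 0.287 to 0.432. In IRGA 428 the pairs that joined the temperatures ranged from 0.0791 to 0.457, which covered the range of the pairs within a temperature. Temperature went with 28.9% of the variance of log2 CPM over 21396 genes in IRGA 428 (exact permutation p = 0.2, 6 libraries). In BR-IRGA 409 it went with 62.9% over 22420 genes (exact permutation p = 0.1, the smallest that 3 against 3 allows). The difference between the cultivars in these shares was not tested. In BR-IRGA 409 the 38 °C libraries held 39.0 to 75.4 M gene counts, against 7.08 to 15.0 M at 29 °C. These libraries were not thinned, and the part of depth in their separation was not tested. The IRGA 428 share was 28.5% after thinning to equal depth (exact permutation p = 0.2). It was 18.4% without control 1 (exact permutation p = 0.5) and 45.0% without control 3 (exact permutation p = 0.1). Random labels give a larger share with fewer libraries, so shares from unlike numbers of libraries do not compare directly.

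The largest axes of variation gave the same picture. The first principal component held 55.4% of the variance, with heat 1, 2 and 3 at −3.41, −47.9 and −53.2 and control 1, 2 and 3 at 102, 0.638 and 2.12. Heat libraries lay below control libraries on it without overlap, at −34.8 ± 27.4 against 34.8 ± 58.0 (SD, n = 3 each; exact permutation p = 0.1, the smallest possible, and 0.3 when adjusted over 3 components). Heat 1 and control 2 were however only a few units apart, and control 1 set most of the length of the axis. The difference of means was −69.7 with all 6 libraries and −13.8 without control 1 (exact permutation p = 0.8). The order of the libraries on this component was also exactly their order of depth, and the order held after thinning to equal depth, when heat 1, 2 and 3 lay at −2.22, −44.3 and −49.3 and control 1, 2 and 3 at 91.9, 0.798 and 3.11. The part that anything else linked to depth had in this axis was not tested. The second component (29.3%) placed heat 1 and control 3 together, at 46.5 and 52.0, and control 2 at the other end, at −50.6. It did not separate the temperatures (exact permutation p = 0.9), nor did the third (8.01%, exact permutation p = 0.5).

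**Figure D2:**
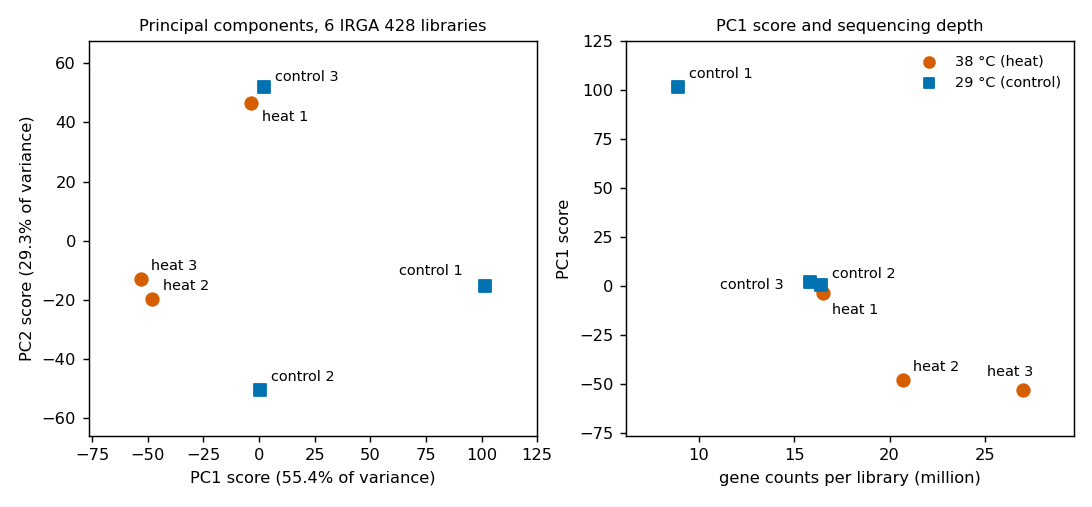
Left, scores of the 6 IRGA 428 libraries on the first and second principal components of log2 CPM over 21396 genes, with heat libraries as circles and control libraries as squares. Right, the score on the first component against gene counts per library (M). Heat 1 and control 3 lie together at the top left, and control 1, the shallowest library at 8.88 M, lies alone at 102 on the first component.

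Against this spread, the test across all genes called none. In a fit of the 6 libraries with edgeR's quasi-likelihood test, 0 of 21396 genes (0%) passed a Benjamini-Hochberg adjusted p of 0.05, and the smallest adjusted p was 0.680. With no adjustment, 1237 genes (5.78%) had a p below 0.05, 515 higher at 38 °C (2.41%) and 722 lower (3.37%). That is close to the share of 0.05 that such a threshold gives where no gene differs. DESeq2, run without that filter of low counts, also called 0 genes, with 1757 of 31955 at an unadjusted p below 0.05. As its set of genes was larger, this number does not compare directly with 1237. On the 21396 genes limma-voom called 0, with 1213 at an unadjusted p below 0.05. The common biological coefficient of variation within a temperature was 0.280. The log2 fold changes had a median of −0.01, the middle 50% lay between −0.20 and 0.21, and the middle 90% between −0.74 and 0.78. At least a 2-fold difference in means was found for 1163 of the 21396 genes, 598 higher and 565 lower at 38 °C. For 858 of these (73.8%) the heat and control libraries overlapped, so that the difference rested on some libraries and not on all. Over all 21396 tested genes, only 2460 (11.5%) were without overlap. Overlap was thus less frequent among the 2-fold genes, picked for a large difference, than over all genes.

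The heat libraries lay wholly to one side of the control libraries in CPM for 2460 genes (11.5%), 1273 above (5.95%) and 1187 below (5.55%). Labels given at random, 3 against 3, would separate a gene without ties at a rate of 0.1. The share found lies near that rate, so these genes are described and not called. The larger number above turned round with other scalings, at 1207 above and 1282 below with relative log expression and 1146 above and 1279 below with upper-quartile scaling. The median log2 fold change was 0.47 for the genes above and −0.39 for those below, and 160 above and 145 below differed by at least 2-fold. Within these genes the gap between the temperatures was mostly set by the same libraries. Heat 1 was the heat library nearest to the controls in 60.0% of the genes above and 58.8% of those below. Control 3 was the control library nearest to the heat libraries in 57.7% and 62.3%, whereas control 1 held that place in 10.1% and 7.33%.

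The share of genes without overlap differed with the number of reads behind a gene. Genes were grouped by their mean CPM, which counts reads and does not compare transcript levels between genes, since lengths are not known here. Of 822 genes below 1 CPM, 14.2% had no overlap between the temperatures, and the share was 12.9% of 3628 genes at 1 to 4 CPM, 11.7% of 5697 at 4 to 16 CPM, 11.4% of 7632 at 16 to 64 CPM and 9.32% of 3617 above 64 CPM. The genes with the most reads thus gave the lowest share. The filter kept genes that reached its count floor in as few as 3 libraries, so genes near the floor could enter through a single temperature. The part of the filter in these shares was not tested. The median absolute log2 fold change in the same order was 0.46, 0.37, 0.23, 0.15 and 0.17. Genes above 64 CPM also had the lowest share at an unadjusted p below 0.05, 2.76%, with 53 higher and 47 lower at 38 °C, against 5.47% to 7.28% in the other groups.

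At the lower end, the numbers of genes found at one temperature only went with depth. As deposited, 125 genes had counts in all heat libraries and 0 counts in all control libraries, against 24 genes in the opposite pattern. After thinning to equal depth the numbers were 66 and 67. None was abundant in the deposited files, with at most 29 counts summed over the heat libraries and at most 12 over the control libraries, and medians of 5 and 3 counts, so none is described as switched on or off.

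At the upper end, the 100 genes with the most counts in each library took 17.7%, 17.3% and 18.1% of gene counts in heat 1, 2 and 3, against 15.3%, 15.3% and 17.1% in control 1, 2 and 3. The heat libraries were above the control libraries without overlap, at 17.7% ± 0.402 against 15.9% ± 1.03 (SD, n = 3 each; exact permutation p = 0.1, the smallest possible), and control 3 was near the heat libraries. The difference was 1.80 percentage points as deposited and 1.79 after thinning. Altogether 153 genes stood among the top 100 of some library and 56 in all 6 libraries. Of these 56 genes, 43 had a positive log2 fold change, the median was 0.20 and the range −0.63 to 0.73. Without overlap, 4 were above and 1 below, 2 reached an unadjusted p below 0.05 in edgeR, and none passed the adjusted threshold. Over all 21396 tested genes, 11.5% were without overlap and 5.78% were at an unadjusted p below 0.05. Above 64 CPM these shares were 9.32% and 2.76%. With 56 genes the counts are not read as a result about them. The 56 genes together held 12.5%, 12.8% and 13.4% of counts in heat 1, 2 and 3, against 11.2%, 10.8% and 12.4% in control 1, 2 and 3.

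How far each library took part in the heat difference was measured on genes chosen without it. For each library in turn the other 5 were fitted, the genes at an unadjusted p below 0.05 were taken, and the left-out library was placed between the mean of the other control libraries (position 0) and that of the other heat libraries (position 1). Heat 2 and heat 3 lay at 0.835 and 1.01, on 358 and 242 genes (1.67% and 1.13% of those tested). Heat 1 lay at 0.260, on 2076 genes (9.7%), nearer to the control libraries than to the other heat libraries. Control 1 lay at −0.698, on 441 genes (2.06%), beyond the other control libraries. Control 2 lay at 0.740, on 1664 genes (7.78%), and control 3 at 1.00, on 4250 genes (19.9%), so the library labelled control 3 stood at the level of the heat libraries. Whether its label or file is as intended was not tested, and each heat-minus-control value here takes the labels as given. Gene by gene, heat 1 was on the heat side of the midpoint for 22.9% of its genes, heat 2 for 81.6% and heat 3 for 86.4%. Control 1 was on the heat side for 11.1%, control 2 for 71.6% and control 3 for 90.1%. Thus 3 of the 6 libraries, heat 1, control 2 and control 3, stood nearer to the other temperature than to their own in this measure. Each had no part in choosing its genes, but for heat 1 and control 3 the close partner did. The position of heat 1 rested on this, since it lay at 0.812 with both left out, as given below. Control 2 had no such check. Under other scalings, other filters, thinning, or with all genes used, these positions moved by less than their SD within a temperature. That is a loose measure, since the control positions themselves ran from −0.698 to 1.00. With all genes used, control 2 lay at 0.546, control 3 at 0.847 and heat 1 at 0.368.

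**Figure D3:**
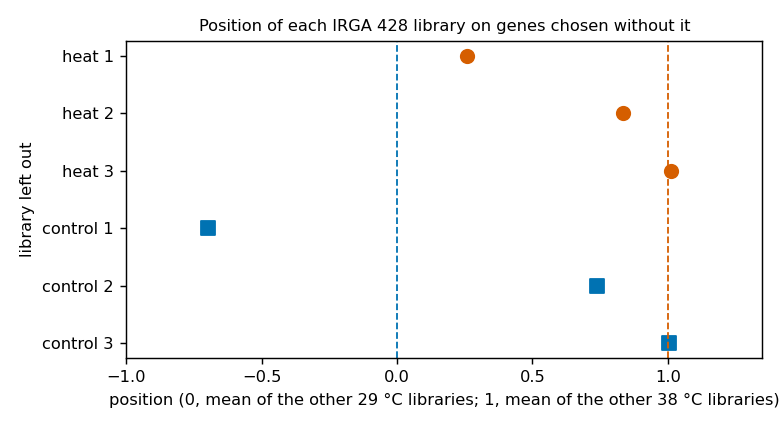
Position of each IRGA 428 library, on genes chosen in a fit of the other 5 libraries, where 0 is the mean of the other 29 °C libraries and 1 that of the other 38 °C libraries (no unit). Circles are heat libraries and squares control libraries. Control 3 lies at 1.00 and heat 1 at 0.260, each with the other one of this close pair in the fit.

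In that measure the close partner of heat 1 or control 3 stayed in the fit. With both left out, heat 2 and 3 against control 1 and 2 gave 4689 genes at an unadjusted p below 0.05 (21.9%), 2147 higher and 2542 lower at 38 °C. On these genes heat 1 lay at 0.812 and control 3 at 0.836, both close to the heat libraries. Heat 1 was on the heat side for 70.0% of the genes and control 3 for 70.8%. On the response of the other 4 libraries, heat 1 therefore lay with its label and control 3 against its label, at nearly the same position. The direct difference of heat 1 minus control 3 on the log2 CPM scale had an SD of 0.304 across genes, against 0.724 for the mean of heat 2 and 3 minus the mean of control 1 and 2. The 2 differences share no library. Across 21396 genes they had a Pearson's r of 0.0681 and the same sign for 51.6% of genes, which describes the genes of these libraries and has no replicates behind it. Of 2748 genes that differed by at least 2-fold in the other 4 libraries (1665 higher and 1083 lower at 38 °C), 58.6% had the same sign in heat 1 minus control 3. The median of heat 1 minus control 3 was positive for both, at 0.22 for the higher and 0.13 for the lower genes.

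The number of genes below the unadjusted threshold moved with each library accordingly. It was 2161, 360 and 257 without heat 1, 2 and 3, and 449, 1694 and 4359 without control 1, 2 and 3, against 1237 with all 6 libraries. Low counts were filtered anew in each of these fits, so the numbers differ slightly from those behind the positions. No fit of 5 libraries called a gene at an adjusted p of 0.05 in edgeR, and the fit without both heat 1 and control 3 called 7 genes (0.032%), 4 higher and 3 lower. In these fits the spread is estimated from 2 libraries at one of the temperatures, or at both. When the spread was estimated with the 6 BR-IRGA 409 libraries included, an alternative chosen with its result known, the fit without control 3 called 1518 genes (6.68%), 771 higher and 747 lower. With heat 1 left out as well as control 3, that fit called 1238 genes (5.41%). With any single one of the other 5 libraries left out it called 0 genes. Weights estimated for each library by limma-voom from its distance to the fitted means were 0.545, 2.10 and 2.77 for heat 1, 2 and 3 and 0.771, 1.10 and 0.370 for control 1, 2 and 3. With these weights 0 genes were called and 4029 had an unadjusted p below 0.05.

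**Figure D4:**
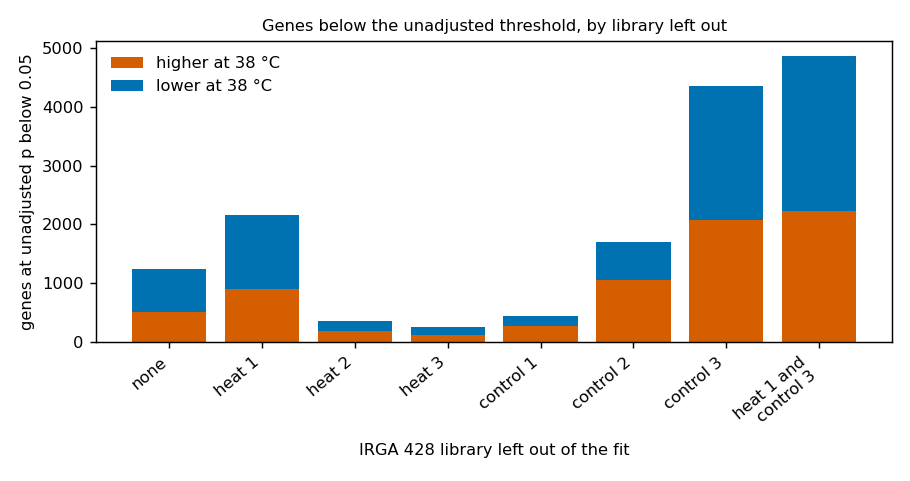
Number of genes at an unadjusted p below 0.05 in edgeR fits of the IRGA 428 libraries, by the library left out, with genes higher at 38 °C below and genes lower at 38 °C stacked above. The number is 1237 with all libraries, 257 without heat 3 and 4359 without control 3.

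Single pairs of libraries were also set beside the response of BR-IRGA 409 at 38 °C, which shares no library with them. Over 21058 genes tested in both cultivars, the mean heat difference of IRGA 428 had a Pearson's r of 0.778 with that of BR-IRGA 409 across genes. The 9 pairs of a heat and a control library ranged from 0.0695 to 0.777. For heat 1 the values were 0.620, 0.0695 and 0.117 against control 1, 2 and 3. For heat 2 they were 0.760, 0.568 and 0.444, and for heat 3 they were 0.777, 0.571 and 0.507, in the same order of controls. Differences taken against control 1 thus followed the other cultivar most, and those of heat 1 against control 2 or 3 least. The BR-IRGA 409 libraries held 39.0, 45.8 and 75.4 M gene counts at 38 °C, against 7.08, 15.0 and 8.08 M at 29 °C, so in both cultivars the heat libraries were the deeper ones, and the part of depth in this likeness was not tested.

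With no gene called, the rule for naming genes gave the 2 higher and 2 lower IDs with the smallest unadjusted p among genes whose mean log2 CPM was 1 or more and whose temperatures did not overlap. MH03g0692600 had 9.09, 10.5 and 10.2 CPM in heat 1, 2 and 3, against 2.64, 4.87 and 4.14 CPM in control 1, 2 and 3. The groups were well apart, also for heat 1 and control 3. The log2 fold change was 1.34 (SE 0.25, edgeR unadjusted p = 0.00127, adjusted p = 0.680), from 145, 215 and 266 counts in heat libraries and 25, 83 and 64 counts in control libraries. MH05g0398400 had 10.1, 9.95 and 10.3 CPM in heat 1, 2 and 3, against 4.55, 4.17 and 6.08 CPM in control 1, 2 and 3. The heat libraries were nearly equal and control 3 was the highest of the controls. Its log2 fold change was 1.03 (SE 0.20, edgeR unadjusted p = 0.00150, adjusted p = 0.680).

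MH08g0412600 had 8.21, 8.29 and 7.38 CPM in heat 1, 2 and 3, against 13.3, 13.9 and 12.3 CPM in control 1, 2 and 3. Libraries of one temperature differed little, with 7.96 ± 0.501 CPM at 38 °C and 13.2 ± 0.790 CPM at 29 °C (SD, n = 3 each). The log2 fold change was −0.73 (SE 0.15, edgeR unadjusted p = 0.00180, adjusted p = 0.680). MH01g0059300 had 16.4, 19.8 and 17.6 CPM in heat 1, 2 and 3, against 33.2, 39.4 and 26.1 CPM in control 1, 2 and 3. All heat libraries were below all controls, and control 3 was the control nearest to them. The log2 fold change was −0.88 (SE 0.18, edgeR unadjusted p = 0.00198, adjusted p = 0.680). These genes were chosen for their separation in these libraries, so the values describe them and do not test them. For each of the 4 genes heat 1 and control 3 differed in the direction of the group means, which the lack of overlap fixed in advance. The differences were 1.11, 0.72, −0.58 and −0.67 on the log2 scale in the order given. In the fit of all 12 libraries none of the 4 passed (edgeR adjusted p = 0.401 for each). Without control 3 in that fit, an alternative chosen with its result known, all 4 had an edgeR adjusted p below 0.05, from 0.0224 to 0.0496. Over all genes, 1518 of 22709 (6.68%) passed there, and 1238 of 22892 (5.41%) without heat 1 as well. The 4 genes had been chosen for their separation in these same libraries, so their passing does not test them. Without both control 3 and heat 1 the edgeR adjusted p was 0.0624 for MH03g0692600, 0.0507 for MH05g0398400, 0.0440 for MH08g0412600 and 0.0466 for MH01g0059300.

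**Figure D5:**
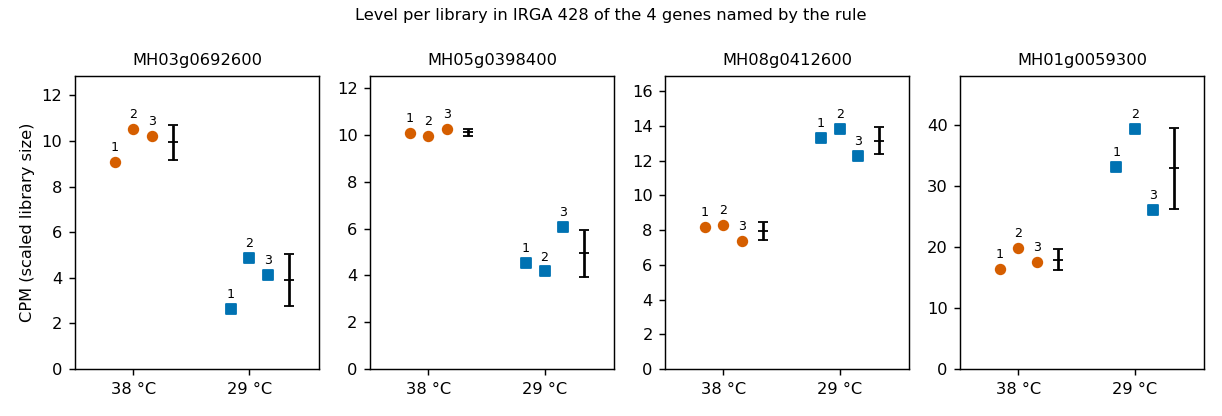
CPM on scaled library sizes of the 4 genes named by the rule in each IRGA 428 library, with 38 °C left of 29 °C; numbers mark the replicate, and the bar is the mean ± SD of 3 libraries. The groups do not overlap in any of the 4 genes, which the rule required.

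The libraries of BR-IRGA 409, which had no part in choosing these genes, were then read for the same genes. In that cultivar 2646 of 22321 genes (11.9%) passed the adjusted threshold in a fit of all 12 libraries. MH03g0692600 rose there, with 12.8, 7.48 and 12.1 CPM in 38 °C libraries 1, 2 and 3, against 2.90, 5.55 and 3.28 CPM in 29 °C libraries 1, 2 and 3, a log2 fold change of 1.43 (SE 0.30; edgeR adjusted p = 0.0227). MH01g0059300 fell, with 14.0, 17.2 and 15.9 CPM at 38 °C, against 19.8, 33.4 and 25.8 CPM at 29 °C, a log2 fold change of −0.75 (SE 0.20; edgeR adjusted p = 0.0378). MH08g0412600 had 6.54 ± 0.469 CPM at 38 °C and 9.17 ± 1.66 CPM at 29 °C (SD, n = 3 each) and did not pass (log2 fold change −0.48, edgeR adjusted p = 0.0588). MH05g0398400 had 4.57, 7.82 and 8.57 CPM at 38 °C, against 6.36, 4.69 and 6.05 CPM at 29 °C, with overlap (log2 fold change 0.31, edgeR adjusted p = 0.422).

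Whether the heat response of these genes differed between the cultivars was tested by the interaction in the fit of 12 libraries, in which 1 of 22321 genes (0.00448%) passed, which was not among the 4. The difference, BR-IRGA 409 minus IRGA 428, was largest for MH05g0398400, at −0.72 on the log2 scale (SE 0.35, edgeR unadjusted p = 0.0608, adjusted p = 0.906). For MH03g0692600 it was 0.10 (SE 0.42), for MH08g0412600 0.25 (SE 0.21) and for MH01g0059300 0.12 (SE 0.28), with edgeR adjusted p from 0.959 to 1.00. A p that misses the threshold with these standard errors does not show that the responses were alike. The genes were chosen by their IRGA 428 values, which also enter the difference. Their IRGA 428 response may thus be overstated, and the difference is no independent test of them.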

How the data were processed

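The values are raw read counts per gene that the authors deposited, 1 table per library, neither normalized nor pooled. Per the submitters' processing notes, the tools were Trimmomatic 0.33, HISAT2 2.05 and HTSeq 0.6.1; their parameters, the strand setting and the genome build were not given in the sources used here, so overlapping antisense genes and near-identical copies are uncertain. The 5 closing lines that name no gene were left out of library sizes and tests; in IRGA 428 they held 6.54% to 8.80% of reads outside genes, 10.1% to 10.4% not aligned, 4.08% to 4.90% with several alignments, 0.0309% to 0.0323% ambiguous and 0 of low quality.

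In R 4.3.3 with edgeR 4.0.16, low counts were filtered with filterByExpr (21396 of 57174 genes kept, 37.4%), library sizes were scaled by the trimmed mean of M-values, and the robust quasi-likelihood test was run on the 6 IRGA 428 libraries. P-values were adjusted by Benjamini-Hochberg over all tested genes. The interaction and the BR-IRGA 409 values came from 1 fit of 12 libraries. Other measures used exact two-sided permutation tests, in which 3 against 3 cannot go below 0.1. Code was tested on simulated data. Alternatives were DESeq2 1.42.0, limma 3.58.1 (voom), other scalings and filters, thinning, and left-out libraries. The comparison, the measures and the rule for named genes were chosen with earlier results of these data known.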

Additional observations from a re-analysis of the deposited data

How the results depend on the processing

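The count of 0 called genes held in 24 of 27 alternatives, among them DESeq2, limma-voom with and without library weights, both scalings, both filters, thinning, the thresholds of 0.01 and 0.1, all 12 libraries together, and each library left out of the 6. It was 7 without both control 3 and heat 1. With the BR-IRGA 409 libraries in the fit, chosen after seeing the data, it ran from 0 to 1518 with 1 library left out and was 1238 without both. Genes at an unadjusted p below 0.05 (1237) numbered 257 to 4359 with 1 library left out and 4867 without control 3 and heat 1. They numbered 2614 with all 12 libraries, 962 to 5822 with 12 libraries less 1 (3895 without heat 1, 3324 without control 2), 6018 with 12 libraries less both, and 4029 with library weights. Genes without overlap (2460) numbered from 3190 of 21831 without heat 3 to 9099 of 21849 without control 3, with 1 library left out. Without both control 3 and heat 1 they numbered 13574 of 21877. Fewer libraries by themselves make separation easier, and the part of this in these numbers was not tested. With the replicate number as a block, 0 genes were called and 2636 had an unadjusted p below 0.05. Same-numbered heat and control libraries deviated from their group means with r = 0.31, 0.58 and −0.12 for numbers 1, 2 and 3. For unlike numbers r ran from −0.66 to 0.44. Whether the numbers pair the libraries was not tested.

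The 4 named genes kept their sign in each of 25 alternatives. The rule had chosen them for no overlap in these same libraries, so a change of sign was hardly possible. The cultivar difference of MH03g0692600 (0.10) ran from −0.11 to 0.28 with 1 library left out and was −0.025 without both, and that of MH01g0059300 (0.12) ran from −0.041 to 0.25; the cause was not tested. The share of variance with temperature ran from 18.4% to 57.8%. The highest was without control 3 and heat 1 (exact permutation p = 0.333), where fewer libraries raise the share that random labels give.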

Other observations

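Except for 44 of the 57174 IDs, read here as unplaced, each ID carries digits directly after the prefix MH. That the digits stand for a chromosome is an assumption made here. Genes whose heat libraries lay wholly to one side of the control libraries in IRGA 428 were found at similar shares under all 12 numbers, from 9.93% of 1148 genes under number 10 to 13.6% of 1754 genes under number 6, with 11.5% over all genes. Under number 6 there were 135 genes above and 103 below, and under number 10 there were 61 and 53. Genes at an unadjusted p below 0.05 ranged from 4.18% under number 12 to 6.93% under number 9. No test of these shares was made.

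The share of reads outside genes was 6.60%, 7.76% and 8.80% in heat 1, 2 and 3, against 6.54%, 7.80% and 6.94% in control 1, 2 and 3 (exact permutation p = 0.5). Reads with several alignments took 4.12%, 4.62% and 4.90% of the heat libraries, against 4.08%, 4.38% and 4.30% of the control libraries (exact permutation p = 0.3). In both measures heat 1 was the lowest of the heat libraries, and the temperatures overlapped.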
